A study of Homo sapiens with 24 samples.

Results

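Epithelial cells are joined by classical cadherins at adherens junctions and by desmosomes, and 10 genes of these junctions were followed in a cancer cell line and a keratinocyte line given AMP-18. AMP-18, also called gastrokine-1, is a protein secreted by the gastric mucosa, and the study asked how it acts on head and neck cancer cells compared with nontransformed keratinocytes. The genes, CDH1, CDH3, DSC2, DSC3, DSG2, DSG3, DSP, JUP, PKP1 and PKP3, were taken by symbol out of 20046 named genes, and they were read by 19 of the 47323 probes of an Illumina bead array. The lines were SCC-61, from a human head and neck squamous cell carcinoma, and HaCaT, an immortalized human keratinocyte line that does not form tumours. The 8 groups, with 3 arrays each and 24 arrays in all, were AMP-18-treated and untreated SCC-61 cells at 24 h, AMP-18-treated and untreated SCC-61 cells at 2 h, and the same 4 groups of HaCaT cells. Before treatment every culture, controls included, was held in medium with serum lowered to 1% FBS, and treated cells then received AMP-18 at 2 µg/ml, whereas for the untreated cells no vehicle is named. SCC-61 cells were grown in DMEM/F12 with hydrocortisone and HaCaT cells in DMEM, so line and growth medium cannot be told apart, and each kind of cell is represented by a single line. Since the labels do not state that the 3 samples of a group were separate cultures, the p-values measure only the spread between these samples.

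CDH1 (E-cadherin) and CDH3 (P-cadherin) are classical cadherins, which bind the same cadherin on the neighbouring cell and are tied to actin through catenins. Desmosomes are spot junctions that anchor keratin filaments. Their adhesive proteins are the desmogleins (DSG2, DSG3) and desmocollins (DSC2, DSC3), and their plaque is built of plakoglobin (JUP), plakophilins (PKP1, PKP3) and desmoplakin (DSP), which holds the filaments. In stratified epithelium DSG3, DSC3 and CDH3 belong mainly to the lower layers, PKP1 is most abundant in the upper layers, and DSG2 and DSC2 are widespread in other epithelia as well.

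The genes lie on 6 chromosomes. CDH1 and CDH3 are both on chromosome 16 and the desmosomal cadherins DSC2, DSC3, DSG2 and DSG3 are all on chromosome 18, with JUP on 17, DSP on 6, PKP1 on 1 and PKP3 on 11. Promoter windows of 300 bases, from 250 before to 50 after an annotated start, were available from RefSeq (GRCh38.p14) for 7 of the 10 genes, with 9 windows, and not for CDH1, CDH3 and PKP3. The windows of 4 genes that AMP-18 raised in SCC-61 cells at 2 h are printed 5′ to 3′ on the gene's strand, DSC3 at chr18:31042693-31042992 (minus strand), DSG3 at chr18:31447491-31447790 (plus), DSP at chr6:7541421-7541720 (plus) and PKP1 at chr1:201283256-201283555 (plus). Capitals mark every match, on either strand, to the E-box CAGGTG, the GC box GGGCGG or CCAAT, with a match on the opposite strand in its reverse complement.
DSC3: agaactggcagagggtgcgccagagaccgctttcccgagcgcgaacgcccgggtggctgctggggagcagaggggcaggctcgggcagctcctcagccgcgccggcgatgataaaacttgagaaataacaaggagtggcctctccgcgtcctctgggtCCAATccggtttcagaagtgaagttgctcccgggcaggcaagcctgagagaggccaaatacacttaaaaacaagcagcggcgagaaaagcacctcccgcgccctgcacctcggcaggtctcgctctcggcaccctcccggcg
DSG3: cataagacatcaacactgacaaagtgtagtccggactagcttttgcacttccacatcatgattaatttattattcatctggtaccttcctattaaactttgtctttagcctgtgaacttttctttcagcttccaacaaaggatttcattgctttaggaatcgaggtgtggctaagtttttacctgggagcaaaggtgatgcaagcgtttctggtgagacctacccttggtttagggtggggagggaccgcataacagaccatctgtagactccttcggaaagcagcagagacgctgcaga
DSP: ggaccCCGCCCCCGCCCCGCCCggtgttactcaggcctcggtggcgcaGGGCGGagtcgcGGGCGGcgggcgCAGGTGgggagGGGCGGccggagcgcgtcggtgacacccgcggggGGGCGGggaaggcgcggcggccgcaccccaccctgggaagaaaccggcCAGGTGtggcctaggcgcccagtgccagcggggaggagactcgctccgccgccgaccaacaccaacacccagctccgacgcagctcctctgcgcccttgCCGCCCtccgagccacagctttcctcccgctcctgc
PKP1: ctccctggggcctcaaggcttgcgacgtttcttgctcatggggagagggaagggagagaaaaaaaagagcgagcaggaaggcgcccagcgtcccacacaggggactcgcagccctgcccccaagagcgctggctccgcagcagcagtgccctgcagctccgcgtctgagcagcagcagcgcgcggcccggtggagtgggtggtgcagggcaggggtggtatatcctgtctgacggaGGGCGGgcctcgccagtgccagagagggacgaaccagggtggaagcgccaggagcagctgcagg
The DSP window was 77% G or C, with 8 GC boxes, some of them abutting or overlapping, and E-boxes starting at -178 and -85 from the start site. The DSG3 window was 44% G or C and held no match, the DSC3 window (63.3%) held CCAAT at -92, and the PKP1 window (67.3%) held a GC box at -14. DSC2 was raised as well, and its windows are not printed. They were 65.7% G or C with GC boxes at -118 and -36, and 60.7% with a GC box at -46 and an E-box at -156. Of the 9 windows, 4 held the E-box, 6 the GC box and 2 the CCAAT motif, against 20.6%, 45% and 34.6% of all 35116 promoters. The AP-1 motif TGANTCA, the grainyhead motif AACCNGTT and TATAAA, present in 7.71%, 1.73% and 11.5% of all promoters, were in 0 of the 9. These matches describe letters only.

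All values are log2 intensities, which compare the same probe between arrays but not the levels of different genes. A gene is represented by its brightest probe unless another is named, and these 10 probes were detected on 24 of 24 arrays, with means from 7.4 (PKP3) to 11.8 (DSG2). Group means were fitted with limma, and a gene was called where the p-value adjusted over all 21580 tested probes was under 0.05. Within groups of 3 the SD of these genes had a median of 0.0484 and a highest value of 0.236 log2 units. Keratin 14 and keratin 5, which define basal keratinocytes, were detected on every array, but KRT14 lay between 6.10 and 6.79 in SCC-61 cells, against 11.92 to 12.24 in HaCaT cells. RNA came from whole cultures, in which fewer cells of a kind and less RNA per cell cannot be told apart.

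**Figure D1:**
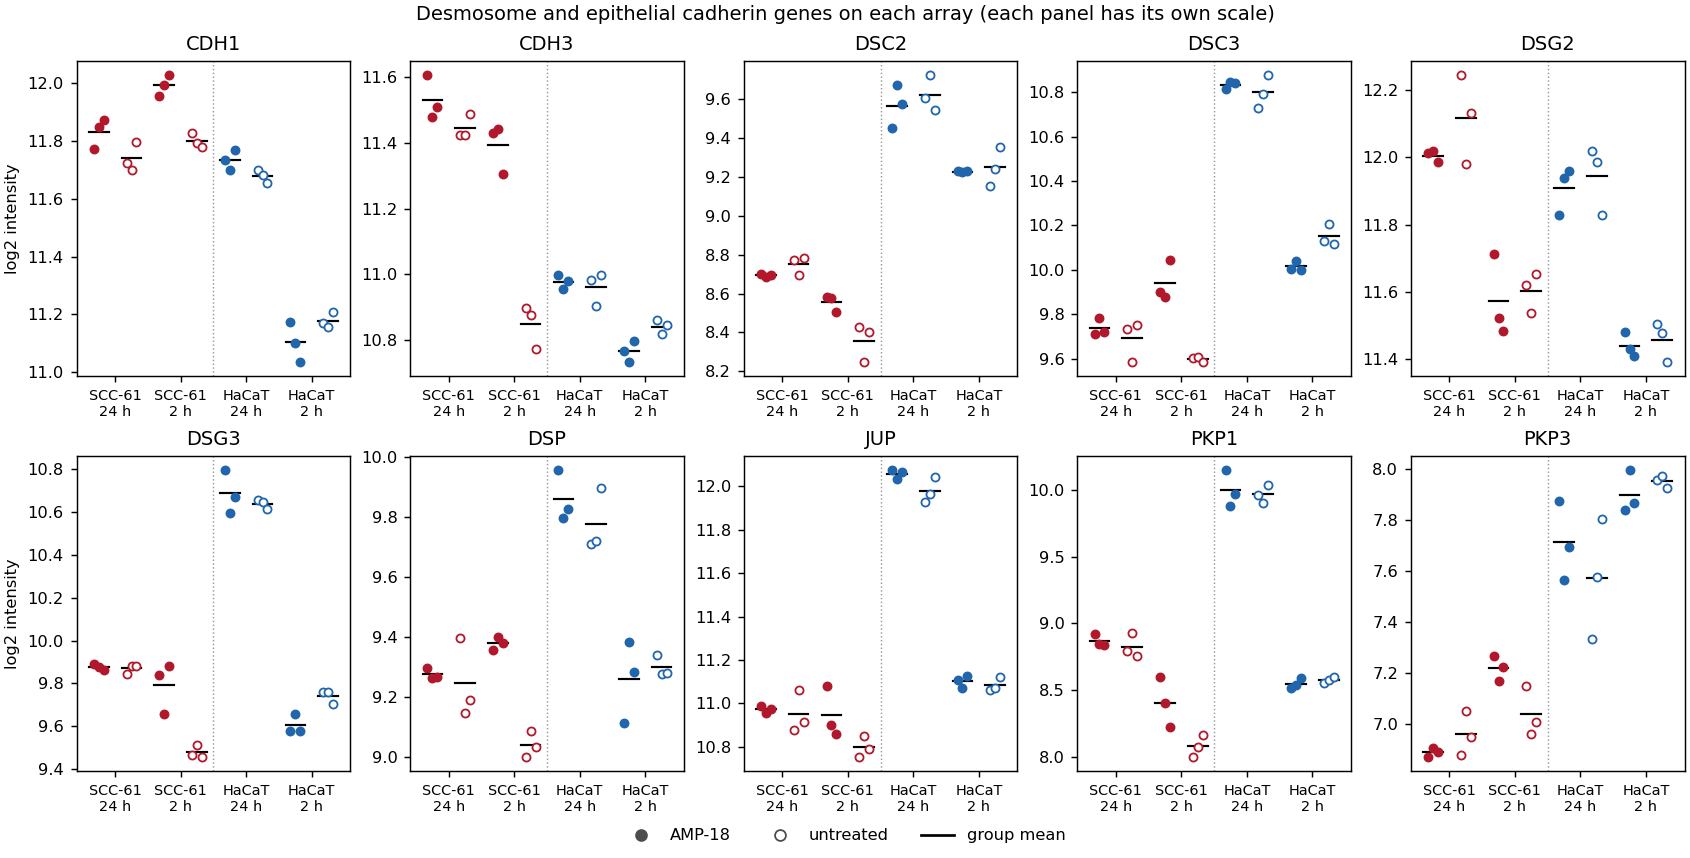
Log2 intensity of each of the 10 genes (main probe) on each of the 24 arrays, SCC-61 in red and HaCaT in blue, with filled points for AMP-18, open points for untreated cells and black lines for group means of 3 arrays; each panel has its own scale. At 2 h the AMP-18 mean of SCC-61 lies above the untreated mean for 9 of the 10 genes, against 50.0% of all genes. The largest spread over groups is that of PKP1, 1.92 log2 units.

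In SCC-61 cells at 2 h AMP-18 raised 7 of the 10 genes and lowered 0. The largest change was in CDH3 (1.46-fold), followed by DSC3 (1.27-fold), DSP (1.26-fold), PKP1 (1.25-fold), DSG3 (1.24-fold), DSC2 (1.15-fold) and CDH1 (1.14-fold), so both classical cadherins, most of the desmosomal cadherins and part of the plaque were higher with AMP-18. Of the 12221 genes tested, 6.28% were called higher and 3.25% lower in the same comparison. The median log2 fold change was 0.25 over the 10 genes and -0.00024 over all genes, and 9 of the 10 were positive, against 50.0% of all genes.

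Among the classical cadherins, CDH3 had 11.43, 11.44 and 11.31 log2 units on the SCC-61 arrays with AMP-18 at 2 h, against 10.90, 10.88 and 10.77 on the untreated arrays. Every treated array exceeded every untreated one by more than the spread within either group, and the log2 fold change was 0.54 (SE 0.048, adjusted p = 8.59e-08). CDH1 had 11.96, 11.99 and 12.03 with AMP-18, against 11.83, 11.79 and 11.78 untreated, a smaller rise of 0.19, again without overlap (SE 0.043, adjusted p = 0.00522).

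Of the desmocollins, which pair with desmogleins across the desmosome, DSC3 had 9.90, 9.88 and 10.04 with AMP-18, against 9.60, 9.61 and 9.59 in untreated cells. The untreated arrays of DSC3 lay close together below all the treated ones, and the rise was 0.34 (SE 0.053, adjusted p = 0.000165). DSC2 had 8.58, 8.58 and 8.51 with AMP-18, against 8.43, 8.25 and 8.40 untreated. The groups of DSC2 did not overlap, but its rise of 0.20 (SE 0.064) lay at the edge of the threshold (adjusted p = 0.0499).

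By their brightest probes the desmogleins did not share a call, and they were not tested against each other. DSG3 is the autoantigen of pemphigus vulgaris. DSG3 had 9.84, 9.66 and 9.88 with AMP-18, against 9.47, 9.51 and 9.46 untreated, with a rise of 0.31 (SE 0.055, adjusted p = 0.000535). DSG2 had 11.71, 11.52 and 11.48 with AMP-18, against 11.62, 11.54 and 11.65 untreated. These groups overlapped, and the log2 fold change of DSG2 was -0.03 (95% interval -0.16 to 0.10, adjusted p = 0.845).

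In the plaque, DSP had 9.36, 9.40 and 9.38 with AMP-18, against 9.0, 9.09 and 9.03 untreated, and PKP1 had 8.59, 8.40 and 8.22 with AMP-18, against 8.0, 8.08 and 8.16 untreated. Both rose, DSP by 0.34 (SE 0.068, adjusted p = 0.00183) and PKP1 by 0.33 (SE 0.075, adjusted p = 0.00579), but the treated arrays of PKP1 were far apart. JUP, which also takes part in adherens junctions, had 11.08, 10.90 and 10.86, against 10.76, 10.85 and 10.79 untreated, and its log2 fold change of 0.15 (SE 0.053, adjusted p = 0.0803) was not called. PKP3 had 7.26, 7.17 and 7.22, against 7.15, 6.96 and 7.01 untreated, with 0.18 (SE 0.090, adjusted p = 0.244), likewise not called although the arrays did not overlap.

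With the mean of a gene's probes in place of the brightest, 4 of the 10 were called, CDH1, CDH3, DSG3 and PKP1, and the log2 fold changes were 0.20 for DSC3 (adjusted p = 0.0649), 0.19 for DSP (adjusted p = 0.0926) and 0.086 for DSC2 (adjusted p = 0.641). The call for DSC2 was also lost in several other alternative fits, and that for PKP1 with only the groups compared (adjusted p = 0.0578) and without SCC-61 AMP-18 2 h replicate 1, where its log2 fold change was 0.23 (adjusted p = 0.052, and at most 0.276 over the other alternatives). The methods' t-test, which the study names for comparing groups in general and not for the arrays, called 0 of the 10 and 0.115% of all genes after adjustment over the same probes. The share of all genes called in this comparison, 9.53% in the main fit, also moved with the setting, from 0.115% to 17.1%.

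**Figure D2:**
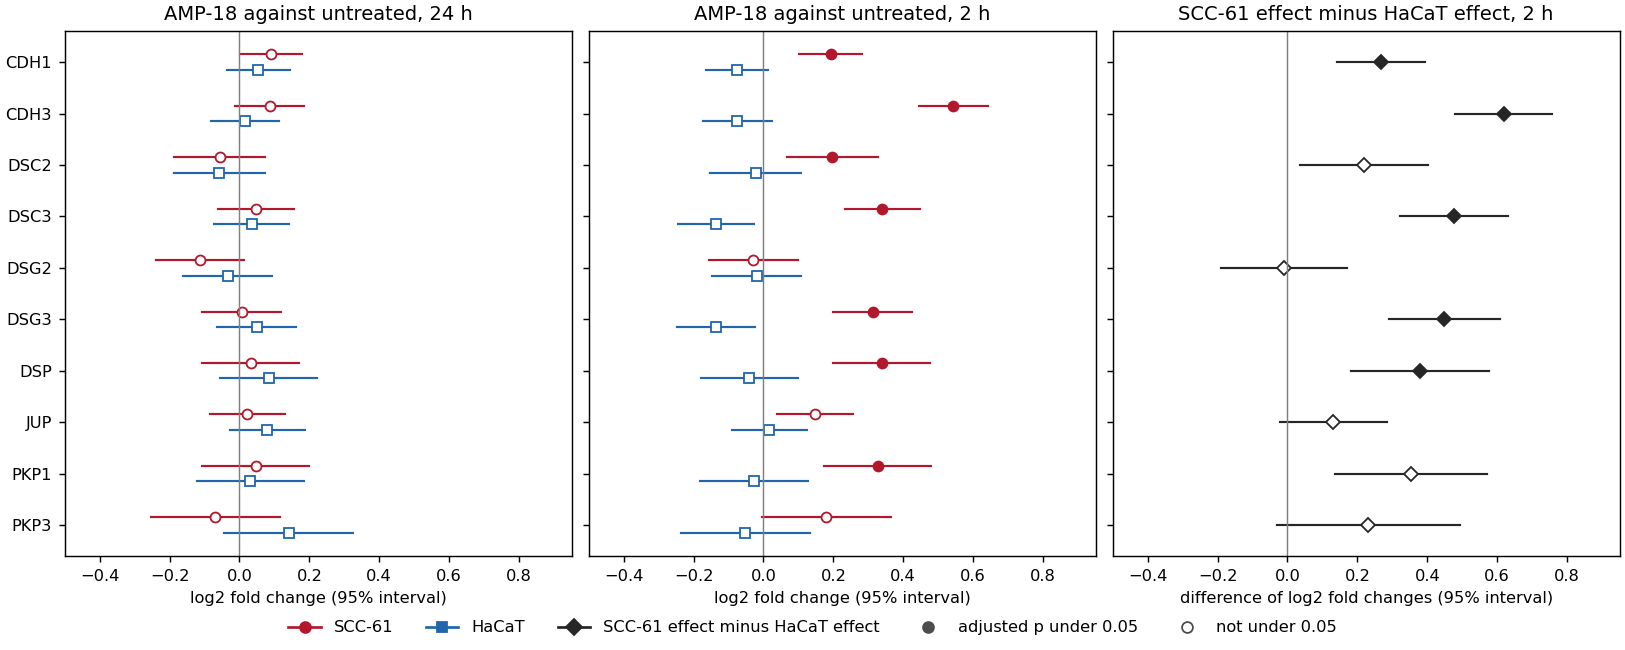
Log2 fold change of AMP-18 against untreated cells at 24 h (left) and 2 h (middle) in SCC-61 (red circles) and HaCaT (blue squares), and the SCC-61 effect minus the HaCaT effect at 2 h (right, black diamonds), with 95% intervals; filled symbols have an adjusted p under 0.05. At 2 h 7 genes are filled in SCC-61 and 0 in HaCaT, at 24 h 0 in either line, and 5 differences between the lines are filled.

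In HaCaT cells at 2 h none of the 10 genes was called with AMP-18 by limma or by the methods' t-test, among 0% of all genes higher and 0% lower. The log2 fold changes ran from -0.14 (DSG3 and DSC3) to 0.02 (JUP), with a median of -0.05 against -0.0043 over all genes, and 1 of 10 was positive, against 48.2% of all genes. DSC3 had 10.01, 10.04 and 10.00 with AMP-18, against 10.13, 10.20 and 10.12 untreated, and DSG3 had 9.58, 9.66 and 9.58, against 9.76, 9.76 and 9.70. For both genes the treated arrays lay below the untreated ones, and these were the 2 genes with an unadjusted p under 0.05, but neither passed the adjustment (adjusted p = 0.509 for DSC3 and 0.523 for DSG3). CDH3 had 10.77, 10.73 and 10.80 with AMP-18, against 10.86, 10.82 and 10.85 untreated, with a log2 fold change of -0.07 (adjusted p = 0.767).

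The effect of AMP-18 at 2 h differed between the lines for 5 of the 10 genes, all with the more positive effect in SCC-61, in a comparison where 3.26% of all genes had a difference above 0 called and 1.03% a difference below 0. The difference of log2 fold changes was 0.62 for CDH3 (SE 0.068, adjusted p = 1.19e-05), 0.48 for DSC3 (SE 0.075, adjusted p = 0.0005), 0.45 for DSG3 (SE 0.078, adjusted p = 0.00118), 0.38 for DSP (SE 0.096, adjusted p = 0.0206) and 0.27 for CDH1 (SE 0.061, adjusted p = 0.0106). Both the classical cadherins and DSC3, DSG3 and DSP were thus apart between the lines by the test of the difference itself. The median difference was 0.31 over the 10 genes and 0.00056 over all genes. PKP1 (0.35, SE 0.106, adjusted p = 0.0554), DSC2 (0.22, SE 0.090, adjusted p = 0.188), PKP3 (0.23, adjusted p = 0.362) and JUP (0.13, adjusted p = 0.38) were not called, and their 95% intervals reached 0.57, 0.40, 0.49 and 0.28. That of DSG2 ran from -0.19 to 0.17 (difference -0.01, adjusted p = 0.972). The DSP difference was no longer called without SCC-61 untreated 2 h replicate 1, HaCaT untreated 2 h replicate 1 or HaCaT AMP-18 2 h replicate 1, with values between 0.31 and 0.44 over all arrays left out. With the mean of a gene's probes the differences of DSC3 and DSP were 0.33 and 0.26 and not called (adjusted p = 0.0518 and 0.134), and with no trend those of DSP and CDH1 were not called (adjusted p = 0.0689 and 0.0563).

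At 24 h none of the 10 genes was called with AMP-18 in either line, by limma or by the methods' t-test. In SCC-61 cells the log2 fold changes lay between -0.11 (DSG2) and 0.09 (CDH1), among 0.213% of all genes called higher and 0.131% lower, and CDH1 alone had an unadjusted p under 0.05 (adjusted p = 0.473). In HaCaT cells they lay between -0.06 (DSC2) and 0.14 (PKP3), among 0.646% higher and 1.25% lower, with 0 genes under an unadjusted 0.05. CDH3 had 11.61, 11.48 and 11.51 with AMP-18 in SCC-61 cells at 24 h, against 11.42, 11.42 and 11.49 untreated, and these groups overlapped. DSC3 had 9.71, 9.78 and 9.72 there with AMP-18, against 9.74, 9.59 and 9.75 untreated, and DSG3 had 9.89, 9.88 and 9.86, against 9.85, 9.88 and 9.88. The effects of the lines at 24 h differed for 0 of the 10, also at an unadjusted 0.05, among 0.164% of all genes more positive and 0.0409% more negative in SCC-61.

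Within SCC-61 cells the effect at 24 h was below the effect at 2 h for 3 genes, CDH3 (difference -0.46, SE 0.068, adjusted p = 0.00047), DSG3 (-0.31, SE 0.078, adjusted p = 0.0365) and DSC3 (-0.29, SE 0.075, adjusted p = 0.0374), among 0.352% of all genes with a higher and 1.77% with a lower effect at 24 h. The 3 are cadherins of the lower epithelial layers, but whether that sets them apart from the other members was not tested. All 10 differences were negative, with a median of -0.27 against 0.02 over all genes, but those of DSP (-0.31, adjusted p = 0.106), PKP1 (-0.28, adjusted p = 0.209) and DSC2 (-0.25, adjusted p = 0.167) were not called. The calls for DSG3 and DSC3 were lost when any of 10 and 9 of the 24 arrays was left out, with differences of -0.37 to -0.26 for DSG3 and -0.35 to -0.24 for DSC3, and also with no filter, with only the groups compared and with no trend. With the mean of its probes DSC3 had -0.11 (adjusted p = 0.643). The count was 1 (CDH3) without any of 8 SCC-61 arrays, namely the 3 AMP-18 24 h arrays, the 3 untreated 2 h arrays, untreated 24 h replicate 3 and AMP-18 2 h replicate 3. In HaCaT cells the same difference was called for 0 of the 10, among 0.0982% higher and 0.123% lower, with 3 genes (CDH1, DSC3 and DSG3) at an unadjusted p under 0.05.

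Without AMP-18 the genes also changed between the times. At 24 h against 2 h, 7 of the 10 were higher and 0 lower in untreated SCC-61 cells, among 29% of all genes higher and 29% lower, and 9 were higher and 1 lower in untreated HaCaT cells, among 33.1% higher and 31.5% lower. The median log2 fold change was 0.30 over the 10 genes in SCC-61 (-0.0050 over all genes) and 0.49 in HaCaT (0.02 over all genes). The 2 h untreated arrays also serve the AMP-18 comparison at 2 h, so the comparisons share them.

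CDH3 had 11.42, 11.42 and 11.49 in untreated SCC-61 cells at 24 h, against 10.90, 10.88 and 10.77 at 2 h, a rise of 0.59 (SE 0.048, adjusted p = 9.86e-12). In untreated HaCaT cells it had 10.98, 10.90 and 11 at 24 h, against 10.86, 10.82 and 10.85 at 2 h, a rise of 0.12 (adjusted p = 0.0318) whose call was lost without HaCaT untreated 24 h replicate 1 or 3 or untreated 2 h replicate 2 or 3 or with no trend (0.10 to 0.15 over all arrays left out). For CDH1 the change was in HaCaT cells. It had 11.72, 11.70 and 11.80 in SCC-61 cells at 24 h, against 11.83, 11.79 and 11.78 at 2 h (-0.06, adjusted p = 0.264), and 11.70, 11.68 and 11.66 in HaCaT cells at 24 h, against 11.17, 11.16 and 11.21 at 2 h (0.50, SE 0.043, adjusted p = 2.34e-11).

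The desmosomal cadherins DSG2 and DSC2 rose in both lines, DSG2 by 0.51 in SCC-61 and 0.48 in HaCaT, and DSC2 by 0.39 in SCC-61 and 0.37 in HaCaT, and the intervals of their differences between the lines were -0.15 to 0.21 and -0.17 to 0.20. With the mean of its probes DSC2 had 0.14 in SCC-61 and was not called (adjusted p = 0.227). DSG3 and DSC3 rose more in HaCaT. DSG3 had 10.65, 10.65 and 10.61 in untreated HaCaT cells at 24 h, against 9.76, 9.76 and 9.70 at 2 h, which is 0.90 (1.86-fold), while its rise in SCC-61 was 0.39. DSC3 rose by 0.65 in HaCaT and had 0.09 (adjusted p = 0.155) in SCC-61.

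The plaque genes PKP1 and JUP rose strongly in HaCaT. PKP1 had 9.97, 9.91 and 10.04 in untreated HaCaT cells at 24 h, against 8.55, 8.58 and 8.60 at 2 h, a rise of 1.4 (SE 0.075, 2.63-fold, adjusted p = 3.78e-16). In untreated SCC-61 cells PKP1 had 8.80, 8.93 and 8.75, against 8.0, 8.08 and 8.16, a rise of 0.75 (1.68-fold, adjusted p = 1.03e-09), which was the largest of the 10 in that line too. JUP had 11.93, 11.96 and 12.04 in HaCaT at 24 h, against 11.06, 11.07 and 11.12 at 2 h, a rise of 0.89 (1.86-fold, adjusted p = 3.55e-15), and rose by 0.15 in SCC-61 (adjusted p = 0.0168). DSP rose by 0.48 in HaCaT and 0.20 in SCC-61. PKP3 was the gene that fell, in HaCaT, with 7.33, 7.58 and 7.81 at 24 h, against 7.96, 7.97 and 7.92 at 2 h (-0.38, SE 0.090, adjusted p = 0.00057), and had -0.08 (adjusted p = 0.491) in SCC-61. The calls for DSP and JUP in SCC-61 were lost by the methods' t-test, with the mean of a gene's probes (-0.09 for DSP and 0.051 for JUP, adjusted p = 0.314 and 0.532) and without untreated 2 h replicate 1, and also without untreated 24 h replicate 1 for DSP and replicate 2 for JUP, with lowest values of 0.13 and 0.096 over all arrays left out. That of PKP3 in HaCaT was lost by the methods' t-test and with the mean of its probes (-0.10).

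The change over time differed between the lines for 7 of the 10 genes, where 22% of all genes were called with a greater change in SCC-61 and 23.6% with a smaller one. It was more positive in SCC-61 for CDH3 (0.47, SE 0.068, adjusted p = 1.32e-06) and more negative there for JUP (-0.74, SE 0.074, adjusted p = 2.44e-09), PKP1 (-0.65), CDH1 (-0.56), DSC3 (-0.56), DSG3 (-0.51) and DSP (-0.27, adjusted p = 0.0242, lost with no trend and on leaving out any of 4 arrays, with -0.35 to -0.21). PKP3 had 0.30 (adjusted p = 0.0616). The median was -0.39 over the 10 genes and -0.01 over all genes.

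Markers of other cells moved with time in both lines. Of the fibroblast markers, 3 of 5 tested were called higher at 24 h in untreated HaCaT, and of the endothelial markers 2 of 2, among 33.1% of all genes. In untreated SCC-61 it was 3 of 5 and 1 of 2, among 29%. DCN, LUM, COL1A1, VWF and CDH5 were each detected on 6 of 6 HaCaT arrays at 24 h and 0 of 6 at 2 h. COL3A1 and FAP, the other fibroblast markers tested, were detected on 1 and 0 of 12 HaCaT arrays. In SCC-61, VWF was detected on 0 of 12 arrays, and DCN, LUM, COL1A1, COL3A1, FAP and CDH5 on 12 of 12. The summed linear intensity of the 9 fibroblast markers was 363 to 405 in untreated HaCaT cells at 24 h, against 126 to 140 at 2 h, and that of the 5 endothelial markers was 189 to 204, against 61 to 74.7. PECAM1, PDGFRA, PDGFRB and THY1 were detected on 0 of 24 arrays, and so were the leukocyte markers PTPRC and CD3E. The leukocyte markers CD14 and CD68 were detected on 12 of 12 arrays of each line. Both were called higher at 24 h in untreated SCC-61, among 29% of all genes, and 1 of them in untreated HaCaT, among 33.1%. The 4 leukocyte markers summed to 964 to 1062 in untreated SCC-61 at 24 h, against 665 to 674 at 2 h. In untreated HaCaT they summed to 210 to 231, against 181 to 213. The part of all these markers in the values over time was not tested. In SCC-61 cells the fibroblast sum was 406 to 478 at 24 h, against 248 to 285 at 2 h, and the keratinocyte sum over 4 markers was 2979 to 3444, against 2733 to 2810. The 4 keratinocyte markers summed to 10826 to 12189 in untreated HaCaT cells at 24 h, against 8475 to 8566 at 2 h.

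**Figure D3:**
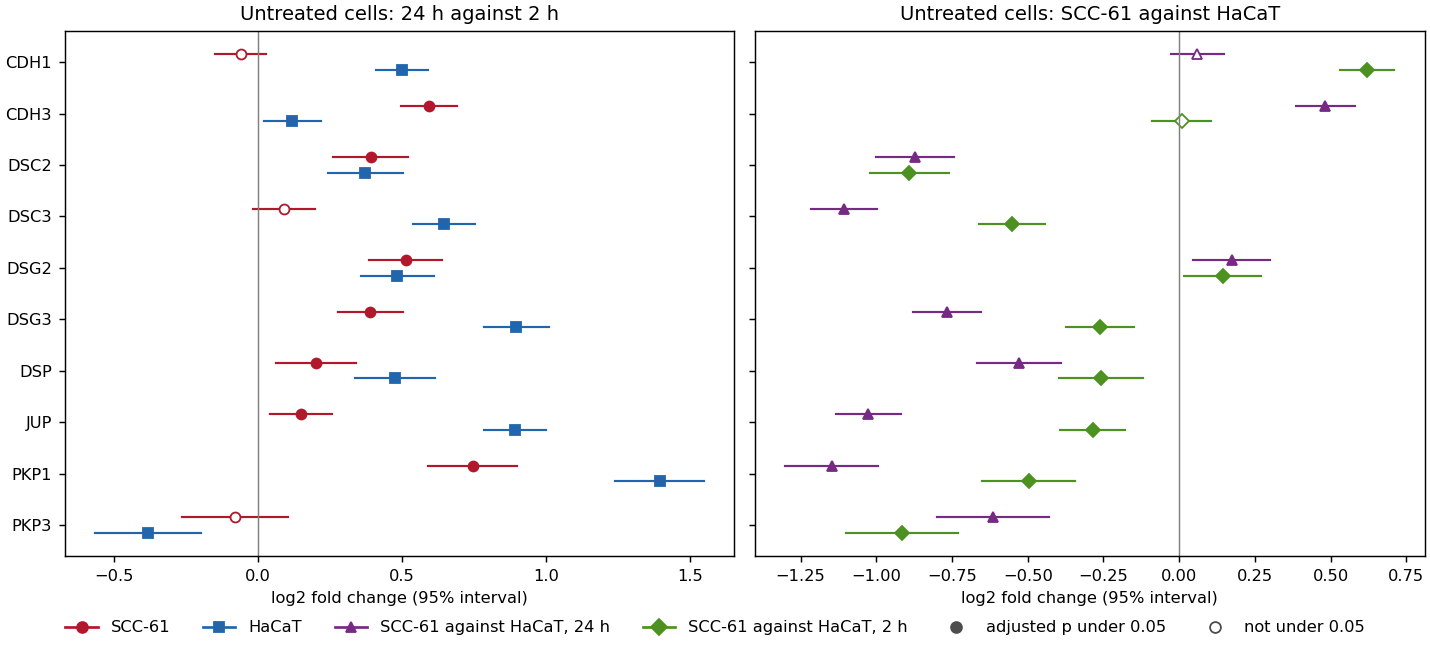
Log2 fold change with 95% interval in untreated cells, at 24 h against 2 h in SCC-61 (red circles) and HaCaT (blue squares) on the left, and of SCC-61 against HaCaT at 24 h (purple triangles) and 2 h (green diamonds) on the right; filled symbols have an adjusted p under 0.05. The HaCaT points of PKP1, DSG3 and JUP stand farthest to the right over time (1.4, 0.90 and 0.89), and on the right 7 genes lie below 0 at both times.

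Untreated SCC-61 cells had lower values than untreated HaCaT cells for 7 of the 10 genes and higher values for 2 at each time, among 36.6% of all genes lower and 33.9% higher at 24 h and 32% lower and 31.3% higher at 2 h. The genes called lower were DSC2, DSC3, DSG3, DSP, JUP, PKP1 and PKP3 at both times, all the desmosomal genes here other than DSG2. At 24 h PKP1 had 8.80, 8.93 and 8.75 in SCC-61, against 9.97, 9.91 and 10.04 in HaCaT, 2.21-fold lower. DSC3 had 9.74, 9.59 and 9.75, against 10.73, 10.79 and 10.87, 2.15-fold lower, and JUP had 10.88, 11.06 and 10.91, against 11.93, 11.96 and 12.04, 2.04-fold lower. For each the lines were separated by far more than the arrays of a group. At 2 h the same genes were 1.41-fold (PKP1), 1.47-fold (DSC3) and 1.22-fold (JUP) lower in SCC-61.

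DSC2 was 1.83-fold lower in SCC-61 than in HaCaT at 24 h and 1.85-fold lower at 2 h, and PKP3 was 1.53-fold lower at 24 h and 1.89-fold lower at 2 h. DSG3 and DSP were 1.70-fold and 1.44-fold lower at 24 h, and both were 1.20-fold lower at 2 h. DSG2 was higher in SCC-61 by 0.17 at 24 h (adjusted p = 0.0153) and by 0.14 at 2 h (adjusted p = 0.0481), but the calls were lost by the methods' t-test, at 2 h also with no filter and with no trend, and on leaving out 2 of the 24 arrays at 24 h (SCC-61 untreated 24 h replicate 1 and HaCaT untreated 24 h replicate 3) and 13 at 2 h. The classical cadherins differed in turn. CDH3 was higher in SCC-61 at 24 h (0.48, adjusted p = 3.43e-10) and had 0.0079 at 2 h (95% interval -0.09 to 0.11, adjusted p = 0.903), whereas CDH1 had 0.06 at 24 h (95% interval -0.03 to 0.15, adjusted p = 0.232) and was higher by 0.62 at 2 h (adjusted p = 2.45e-13). The 4 keratinocyte markers measured were also lower in SCC-61 at both times, and whether this bears on the desmosomal genes was not tested.

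The order of the 8 group levels was set out for each gene, and neighbouring groups were taken as not separated where their arrays overlapped. CDH1 was highest in SCC-61 cells with AMP-18 at 2 h (11.99 ± 0.035, SD, n = 3) and lowest in HaCaT with AMP-18 at 2 h (11.10 ± 0.068), and 5 of its 7 neighbouring pairs overlapped. CDH3 was highest in SCC-61 with AMP-18 at 24 h (11.53 ± 0.066) and lowest in HaCaT with AMP-18 at 2 h (10.77 ± 0.032), with 4 overlapping pairs. In between, its 2 h level in SCC-61 with AMP-18 (11.39 ± 0.076) overlapped the untreated 24 h level (11.44 ± 0.037), and its untreated 2 h level (10.85 ± 0.066) overlapped that of untreated HaCaT. DSC2, DSC3, DSG3, DSP, JUP and PKP1 shared their lowest group, untreated SCC-61 at 2 h, and their highest was a HaCaT group at 24 h, treated except for DSC2. The span from lowest to highest was 0.68 for DSG2, with 6 of 7 pairs overlapping, and 1.92 for PKP1. PKP3 had the reverse order in time, with its highest level in untreated HaCaT at 2 h (7.95) and its lowest in SCC-61 with AMP-18 at 24 h (6.89).

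After centring each line on its own mean, the 8 group means of the genes were compared. They had Pearson r between 0.34 (CDH1 and CDH3) and 0.99 (CDH1 and DSC3) over the 36 pairs without PKP3 and a median of 0.86. The 9 pairs with PKP3 had r between -0.88 and -0.33. These points share arrays and 2 times and describe the groups only. The genes whose centred group means were most like those of a member were LAMP1 (0.981), FZD7 (0.974) and PLXNB3 (0.972) for CDH3, SGPL1 (0.997) for CDH1, NUMA1 (0.995) for DSC3, KRT13 (0.997) for DSG3, CDKN1A (0.999) for JUP, PDGFD (0.995) for DSP and GKN2 (0.984) for PKP3, each over 8 group means. For PKP1, DSG2 and DSC2 they were MUC16 (0.9995), NINJ1 (0.998) and MAN1B1 (0.991). Each was picked as the highest among 4808 (PKP1) to 11831 (PKP3) genes, after genes of a much smaller range than the member were left out. Values near 1 picked in this way do not show shared control, which was not tested.

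The 18 tested probes did not all follow the brightest probe of their gene. In SCC-61 at 2 h 15 of 18 had a positive log2 fold change with AMP-18, and of the 8 weaker probes 6 were positive and 0 were called by limma. Of all genes 50.0% were positive there, and 1864 of all 21580 tested probes were called. Probes of the same gene are not separate members. The second DSG2 probe (mean 9.0) had 9.22, 9.15 and 9.35 with AMP-18, against 9.02, 8.88 and 9.11 untreated, with a log2 fold change of 0.23 (SE 0.080, adjusted p = 0.0653), unlike the brightest DSG2 probe at -0.03. Its effect in SCC-61 exceeded that in HaCaT by 0.44 (SE 0.113, adjusted p = 0.0235), a call lost without SCC-61 untreated 2 h replicate 2, SCC-61 AMP-18 2 h replicate 3, HaCaT untreated 2 h replicate 2 or HaCaT AMP-18 2 h replicate 3 (lowest 0.36) and with no trend. It had 8.63, 8.64 and 8.40 in HaCaT with AMP-18, against 8.74, 8.82 and 8.72 untreated. The second DSC3 probe had 0.06 (adjusted p = 0.825) and the second DSC2 probe -0.02 (adjusted p = 0.956), where the brightest probes of both genes were called. For JUP the 2 weaker probes had 0.21 each (adjusted p = 0.177 and 0.187).

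Over time in untreated SCC-61 cells, opposite signs were called by limma for probes of 1 gene, DSP. Its dimmest probe (mean 5.1) had 4.29, 4.32 and 4.63 at 24 h, against 5.10, 4.93 and 5.04 at 2 h, and fell by 0.61 (SE 0.135, adjusted p = 0.000335), where the brightest probe rose by 0.20. Weaker probes that were not called also lay opposite to a called brightest probe, with -0.12 for DSC2 and -0.04 for one JUP probe in SCC-61 and 0.18 for PKP3 in HaCaT. The dimmest DSP probe was detected on 22 of 24 arrays, the second PKP3 probe on 11 and the second PKP1 probe on 0, which was not tested. In untreated SCC-61 at 24 h that DSP probe was detected on 1 of 3 arrays, so its fall ended near the detection limit. With AMP-18 in HaCaT at 2 h 1 of the 18 probes was positive, and the SCC-61 effect exceeded the HaCaT effect for 17 of 18, of which 6 were called. Of all genes 48.2% were positive in HaCaT and 50.1% had the more positive effect in SCC-61. The difference was called for 847 of all 21580 tested probes.

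**Figure D4:**
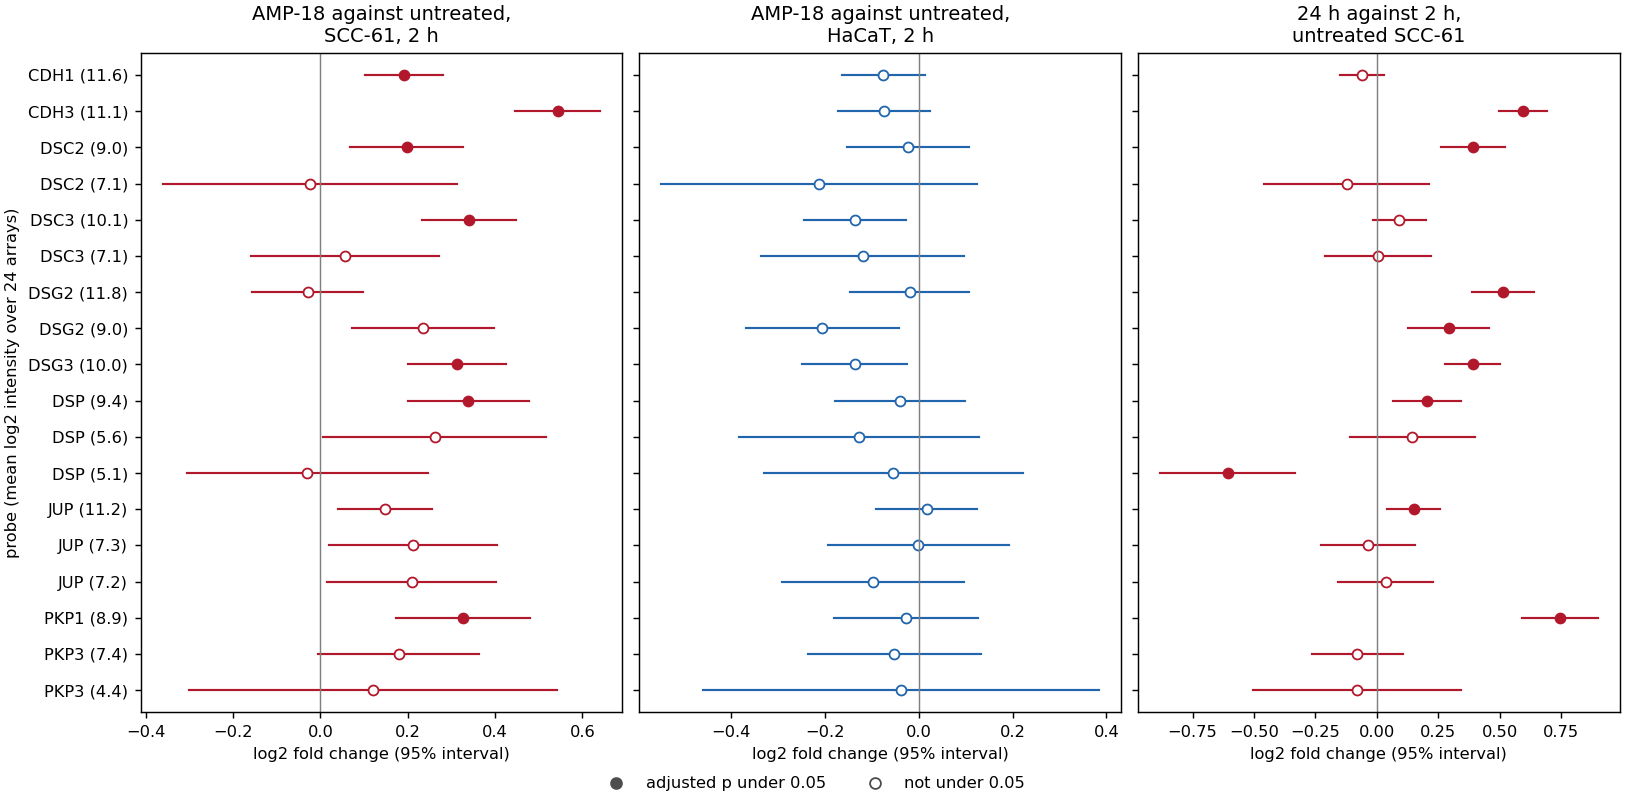
Log2 fold change with 95% interval for the 18 tested probes, each labelled with its gene and mean log2 intensity, for AMP-18 in SCC-61 at 2 h, AMP-18 in HaCaT at 2 h and untreated SCC-61 at 24 h against 2 h; filled symbols have an adjusted p under 0.05. In the first panel 7 probes are filled, all the brightest of their gene, and in the last the DSP probe of mean 5.1 lies at -0.61, opposite to the brightest DSP probe.

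The same comparison was read for other genes of the junctions in lists taken from general knowledge. Of the other desmosome genes 7 of 9 were measured. Of these, 2 were higher and 0 lower with AMP-18 in SCC-61 at 2 h, where 6.28% of all genes were called higher and 3.25% lower. The 2 were EVPL (0.37, SE 0.099, adjusted p = 0.018) and PPL (0.25, SE 0.069, adjusted p = 0.0205). EVPL and PPL encode envoplakin and periplakin, plakin proteins of the desmosome and the cornified envelope. The list's median was 0.03. DSG1 and DSC1, the desmosomal cadherins of the upper epidermis, were detected on at most 3 of the 12 arrays of a line and were not tested, and DSG4 was detected on 0 of 12 SCC-61 arrays and 11 of 12 HaCaT arrays.

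Of the adherens junction plaque and nectin genes 12 of 17 were measured, with a median of 0.04, and 1 was higher and 0 lower, where 6.28% of all genes were called higher, so 1 of 12 lay near the share over all genes. It was NECTIN2 (0.49, SE 0.092, adjusted p = 0.00103), an adhesion molecule that joins adherens junctions through afadin, and like CDH3 it was called for the SCC-61 effect minus the HaCaT effect (0.51, adjusted p = 0.0206) and a lower effect at 24 h than at 2 h in SCC-61 (-0.64, adjusted p = 0.00913). CTNNB1, the beta-catenin that binds CDH1 and CDH3, had -0.31 and was not called. Of 20 other cadherins 7 were measured, with a median of 0.12 and 0 called by limma. Among them CDH2 (N-cadherin) had 0.09 in SCC-61 at 2 h and fell by 0.27 with AMP-18 in HaCaT at 24 h (SE 0.059, adjusted p = 0.0169).

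Of the cadherin sheddases and trafficking genes 11 of 12 were measured, with a median of 0.08. In SCC-61 at 2 h, 3 were higher and 0 lower, where 6.28% of all genes were called higher and 3.25% lower. The 3 were the membrane proteases ADAM15 (0.27, adjusted p = 0.00203) and ADAM17 (0.24, adjusted p = 0.0295) and NCSTN (0.21, adjusted p = 0.00819), nicastrin of the gamma-secretase complex. Of the transcription factors known to act on cadherin or desmosome genes 17 of 22 were measured, with a median of -0.10, and 0 were higher and 1 of 17 lower, likewise near the 3.25% of all genes called lower. It was OVOL2 (-0.20, SE 0.061, adjusted p = 0.0349), a repressor that keeps epithelial cells from turning mesenchymal. SNAI2, a repressor of CDH1, had -0.21 and was not called, and SNAI1 and ZEB1 were detected on 0 of 24 arrays. ZEB2 was detected on 12 of 12 SCC-61 arrays and 0 of 12 HaCaT arrays, and TWIST1 on 12 SCC-61 arrays and 1 HaCaT array. With AMP-18 in HaCaT at 2 h 0 genes of any of these 5 lists were called.

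Of the marker lists at the same comparison, 1 of 4 keratinocyte markers was higher (KRT5, 0.21, adjusted p = 0.0264), where 6.28% of all genes were called higher. None was called of 5 simple epithelial, 5 fibroblast, 2 endothelial, 2 leukocyte and 1 melanocyte markers. The keratinocyte markers summed to 2984 to 3063 in SCC-61 with AMP-18 at 2 h, against 2733 to 2810 untreated, and the fibroblast markers to 286 to 305, against 248 to 285. These keratinocyte and fibroblast sums lay higher with AMP-18, the fibroblast sum barely, whereas those of the other lists overlapped. The simple epithelial sum was 4971 to 5222, against 4575 to 5471, and the endothelial sum 80.0 to 97.1, against 79.3 to 87.0. The leukocyte sum was 645 to 747, against 665 to 674, and the melanocyte sum 46.9 to 51.1, against 50.7 to 55.2. The part of these markers in the rise of the cadherin and plaque genes was not tested.

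**Figure D5:**
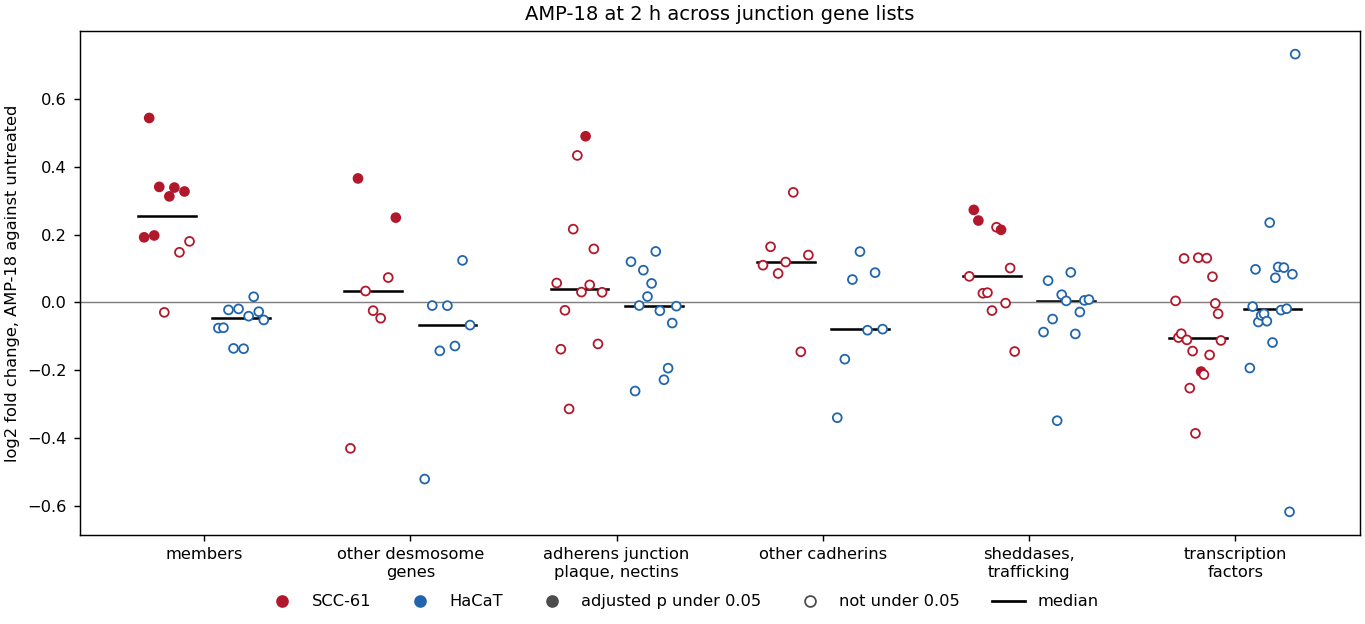
Log2 fold change of AMP-18 against untreated cells at 2 h for the 10 genes and for 5 other lists, each point a gene, SCC-61 in red and HaCaT in blue, with bars at the medians. The 10 genes have a median of 0.25 in SCC-61 and -0.05 in HaCaT, and the SCC-61 medians of the other lists lie between -0.10 and 0.12.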

How the data were processed

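RNA of 24 samples was hybridized to Illumina bead arrays, which by the submitters' processing notes were read in GenomeStudio 2011.1. The deposited table gives log2 intensities, normalized by the authors with a method not given in the sources used here, and a second deposited table gives detection p-values per probe. The values were used as deposited. Of 47323 probes, 30113 had 1 gene symbol in the platform annotation, 8 several and 17202 none. A probe was tested if at least 1 group had all its 3 arrays below a detection p of 0.05, which held for 21580 probes and 12221 genes. Each array detected 39.7% to 46.8% of the probes. Precision is limited by the 3 arrays per group.

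Group means were fitted over all 24 arrays with limma 3.58.1 in R 4.3.3 (lmFit and trended eBayes, 16 residual and 12.6 prior degrees of freedom), in 13 comparisons, with two-sided p-values adjusted by the Benjamini-Hochberg method over all tested probes at a threshold of 0.05. The fit was also run on simulated data with independent normal noise of the fit's own spread. That meets the assumptions of the fit and cannot show whether they hold for these arrays. A gene's value is that of its tested probe with the highest mean. The text names all 10 members, of each gene list up to 4 genes past the threshold with the largest changes, and for each member up to 3 genes of most like group means. Other genes, such as undetected markers, were named after their values were seen. Members, gene lists and marker lists (keratinocyte, simple epithelial, fibroblast, endothelial, leukocyte and melanocyte) were chosen with earlier results of these data known. Marker sums add linear intensities of a list's probes.

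Replicate numbers were not used to pair the samples in the main fit. Deviations of same-numbered arrays had correlations of -0.16 to 0.05 over 12 pairs, 0 of them over 0.1. The labels do not say whether same-numbered samples were handled together, and these correlations cannot settle it. Alternatives were no filter or a stricter filter, quantile, cyclic loess and median normalization, a constant of 16 added before log2, only the groups compared, a replicate block, array weights, eBayes with a robust trend or with no trend, the mean of a gene's probes, the methods' t-test (two-tailed, named by the study for groups in general; its array methods rank genes by Fisher's ratio), and each of the 24 arrays left out. The labels name no slide or scan, so no batch was fitted.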

Additional observations from a re-analysis of the deposited data

Results flagged for a closer look

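The AMP-18 effect differed between the cell lines at 2 h, by the limma test of the difference, for 5 genes, among 3.26% of all genes with a difference above 0 and 1.03% below 0 called. The SCC-61 effect minus the HaCaT effect was 0.62 for CDH3, 0.48 for DSC3, 0.45 for DSG3, 0.38 for DSP and 0.27 for CDH1 on the log2 scale. Within SCC-61 the AMP-18 effect differed between the times for 3 genes, among 0.352% of all genes higher and 1.77% lower at 24 h, and the 24 h effect minus the 2 h effect was -0.46 for CDH3, -0.31 for DSG3 and -0.29 for DSC3. The calls for DSG3 and DSC3 were lost without any of 10 and 9 arrays, and DSC3 had -0.11 with the mean of its probes. The 24 h against 2 h change of untreated cells differed between the lines for 7 genes, where 22% of all genes were called above 0 and 23.6% below 0. The SCC-61 change minus the HaCaT change was -0.74 for JUP, -0.65 for PKP1, -0.56 for CDH1, -0.56 for DSC3, -0.51 for DSG3, -0.27 for DSP and 0.47 for CDH3, so CDH3 was the gene of these with the more positive change in SCC-61.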

How the results depend on the processing

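Of 83 values past the threshold, over 13 settings other than leaving out an array, 977 of 1029 values kept direction and side, 51 lost the call and 1 reversed. On leaving out each of the 24 arrays, 1901 of 1992 kept both, 91 lost the call and 0 reversed. The reversed value was the untreated change of DSP in SCC-61 (-0.0862 with the mean of a gene's probes). The 7 genes called with AMP-18 in SCC-61 at 2 h became 0 under the methods' t-test and 4 with the mean of a gene's probes (DSC2, DSC3 and DSP were lost), and were 5 to 7 without single arrays. The 5 differences between the lines at 2 h became 3 with no trend, and were 4 to 6 without single arrays. The 3 differences between the times in SCC-61 became 1 with no filter, with only the groups compared and with no trend, and 5 with array weights, and were 1 to 3 without single arrays. The 7 genes higher in untreated SCC-61 at 24 h became 4 with the mean of a gene's probes (DSC2, DSP and JUP were lost), and were 5 to 7 without single arrays. The cause of these shifts was not tested. The replicate block left 6 genes called with AMP-18 in SCC-61 at 2 h (DSC2 was lost), 5 differences between the lines at 2 h and 3 between the times. DSC2 lost its call with AMP-18 in SCC-61 at 2 h in 7 settings and without any of 17 arrays. The share of all genes called in that comparison, 9.53%, ran from 0.115% to 17.1% over the settings. For the difference between the lines at 2 h the share, 4.29%, ran from 1.72% to 9.87%. For the difference between the times in SCC-61 the share, 2.12%, ran from 0.828% to 5.94%. Over time in untreated SCC-61 the share, 58.1%, ran from 33.2% to 71.0%. The counts of members are to be read beside these shares.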

Other observations

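CDH2, the N-cadherin of mesenchymal cells, fell over time. In untreated cells at 24 h against 2 h it fell by 1.68 in HaCaT (SE 0.059, adjusted p = 1.34e-20) and by 0.20 in SCC-61 (adjusted p = 0.00438), and at 24 h it was higher by 1.41 in SCC-61 than in HaCaT. Over both times CDH2 ran from 10.53 to 10.97 on the SCC-61 arrays and from 8.75 to 10.94 on the HaCaT arrays. The highest HaCaT values thus overlapped those of SCC-61. PERP, a membrane protein of desmosomes, rose by 0.97 in untreated HaCaT cells (adjusted p = 1.19e-11), and PKP2, the plakophilin of simple epithelia and heart, fell by 0.66 there (adjusted p = 9.27e-10). PPL rose by 0.79 in HaCaT and 0.46 in SCC-61, and OVOL2, which rose by 0.82 in HaCaT, had log2 fold changes of -3.40 at 24 h and -2.69 at 2 h in SCC-61 against HaCaT. Compared with HaCaT, NECTIN2 was higher in SCC-61 by 1.60 at 24 h and 0.79 at 2 h, opposite in sign to the 7 desmosomal genes. These genes were picked from the lists after their values were seen.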
